A study of Rattus norvegicus with 6 samples.

Results

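The genes described here are 47 genes of the extracellular matrix other than the collagens: glycoproteins and proteoglycans of the interstitium, proteins of elastic fibres, laminins and other proteins of basement membranes, and the lysyl oxidases. They form a list fixed by name and not by a cutoff on their values, proposed when earlier results of these data were known, and each was represented by the brightest over 6 arrays of the probe sets that carry its symbol alone. Of the 47 genes, 44 had such a probe set and 38 were bright enough to be tested, out of 10645 genes tested on the array. Tnxb, Thbs1 and Npnt had none and are left out.

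Whole-kidney RNA was compared between 3 Cy/+ and 3 +/+ samples of male Han:SPRD rats, with 1 oligonucleotide array per sample. Cy/+ rats carry 1 copy of the Cy allele, a mutation of Anks6, and develop a slowly progressive cystic kidney disease, and +/+ rats are their wild-type controls. The sample labels give an age of 10 weeks for all 6 samples and no treatment, while the methods of the study give a younger age. The kidney was extracted whole, so that fewer cells of a type and less RNA per cell cannot be told apart. Whether the 6 arrays come from 6 different rats is not stated, so a p-value here reflects the scatter between samples, technical or not.

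Interstitial matrix is laid down mostly by fibroblasts and pericytes. Fibronectin and tenascin form provisional matrix in repair, small leucine-rich proteoglycans such as decorin and biglycan bind collagen fibrils, and fibrillin, elastin and their partners build elastic fibres. Basement membranes under epithelium and endothelium are sheets of laminin, an alpha, beta and gamma chain heterotrimer, joined to type IV collagen by nidogens and by the heparan sulfate proteoglycans perlecan and agrin. Lysyl oxidases crosslink collagen and elastin, and thickened tubular basement membranes and interstitial fibrosis are known features of cystic kidneys.

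Of the 38 genes tested, 23 were higher in Cy/+ kidneys, 1 was lower and 14 did not pass the test (limma, Benjamini-Hochberg adjusted p under 0.05 over all probe sets tested). The share higher was 60.5%, against 37.4% of all genes tested, and the share lower was 2.63%, against 29.3% of all genes tested. The median log2 fold change, Cy/+ over +/+, was 0.98 for the matrix genes and 0.09 for all genes tested. Every Cy/+ array lay above every +/+ array for 24 of the 38 genes, against 41.5% of all genes tested. A gene dim in +/+ could be tested only because it was bright in Cy/+ kidneys, which was so for 5 of the 38. Among the other 33 genes, whose means reached the filter in both genotypes, 19 were higher and 1 was lower, and 36.7% of all such genes were higher. This last count was added after the values were seen.

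**Figure D1:**
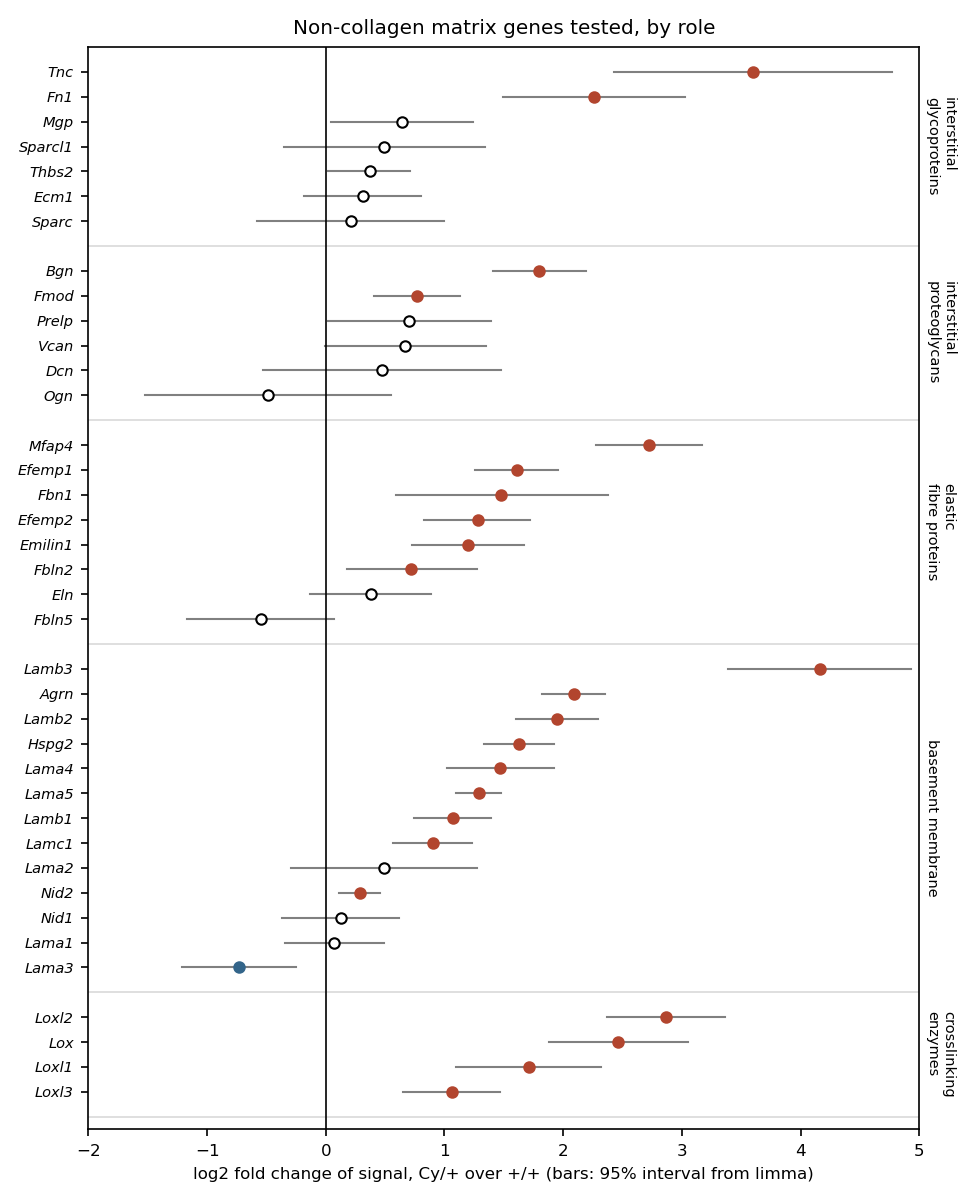
Log2 fold change of signal, Cy/+ over +/+, for the 38 matrix genes tested, by role, with 95% intervals from limma. Filled red points were higher in Cy/+ kidneys, the filled blue point (Lama3) was lower and open points did not pass. All 4 crosslinking enzymes were higher, while 5 of 7 interstitial glycoproteins and 4 of 6 interstitial proteoglycans did not pass.

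Control values also differed between the genotypes. The 18 probe sets of the hybridization controls, bacterial and phage RNAs spiked into each sample, had a median log2 difference of 0.87, Cy/+ minus +/+, and the 24 probe sets of the poly-A controls one of 1.93. Of the 23 matrix genes that were higher, 20 had a log2 fold change above 0.87 (87% of them, against 41.4% of all genes that were higher), and 8 had one above 1.93. The ratio of the 3 prime to the 5 prime control probe set was 3.22 ± 0.265 in Cy/+ and 1.51 ± 0.00568 in +/+ for beta-actin, and 1.85 ± 0.103 in Cy/+ and 1.18 ± 0.036 in +/+ for GAPDH (SD, n = 3 each, exact two-sided permutation p = 0.1 for both, the smallest that 3 against 3 allows). The part of these differences in the results was not tested.

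Among the interstitial glycoproteins, fibronectin and tenascin C stood well above +/+ kidneys and the other genes tested did not pass. Of 7 tested, 2 were higher and 0 lower (median log2 fold change 0.49). The share higher, 28.6%, was below the 37.4% of all genes tested, and where both genotypes reached the filter 1 of 5 was higher. Tenascin C (Tnc), a glycoprotein of developing and injured tissue, had signals of 915, 199 and 345 in Cy/+ kidneys, against 29.3, 33.1 and 36.4 in +/+ kidneys. The groups did not overlap, and Cy/+ replicate 1 was the highest by a wide margin. The mean of +/+ kidneys was below the filter, so Tnc was at least 5.11-fold higher in Cy/+ kidneys (fitted log2 fold change 3.60 ± 0.49, SE, adjusted p = 0.000619, limma). Without Cy/+ replicate 1 the gene fell below the filter and was not tested, and the bound was 3.37-fold.

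Fibronectin (Fn1), which cells bind through integrins, had signals of 4507, 1752 and 2357 in Cy/+ kidneys and 519, 485 and 673 in +/+ kidneys. It was 4.79-fold higher in Cy/+ kidneys, with no overlap of the arrays (log2 2.26 ± 0.33, SE, adjusted p = 0.000798, limma).

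Matrix Gla protein (Mgp), an inhibitor of calcification, had signals of 17500, 8344 and 9787 in Cy/+ kidneys and 7630, 6720 and 7402 in +/+ kidneys. The arrays did not overlap, but the spread among Cy/+ arrays left it outside the threshold (log2 0.64, 95% interval 0.04 to 1.24, adjusted p = 0.0589, limma). It passed without Cy/+ replicate 1 (adjusted p = 0.0265) or Cy/+ replicate 2 (0.0166), with quantile normalization (0.0251), with array quality weights (0.0205) and with the replicate block (0.0289). Sparcl1 (0.49, interval -0.35 to 1.34), Ecm1 (0.31, interval -0.18 to 0.80) and Thbs2 (0.37, interval 0.02 to 0.71, adjusted p = 0.0575) did not pass either. Thbs2 passed without Cy/+ replicate 3 (adjusted p = 0.0267) or +/+ replicate 2 (0.0404). These intervals reach past a doubling only for Sparcl1 and Mgp.

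Sparc, a collagen-binding glycoprotein of remodelling tissue, gave 2 readings. Its brightest probe set had signals of 5392, 2177 and 2209 in Cy/+ kidneys and 2583, 2345 and 2785 in +/+ kidneys, and did not pass (log2 0.21, interval -0.58 to 1.00). The second probe set had 6792, 3772 and 3894 in Cy/+ kidneys and 1421, 1162 and 1114 in +/+ kidneys, and was higher in Cy/+ kidneys (log2 1.92, adjusted p = 0.000338, limma). The 2 probe sets are named for the same gene and disagree, and without +/+ replicate 3 the second became the brighter and passed (log2 1.85, adjusted p = 0.00279).

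Periostin (Postn), a matricellular protein of fibroblasts, was below the filter over all arrays and was not tested. Its signals were 359, 128 and 182 in Cy/+ kidneys and 31.1, 25.9 and 24.5 in +/+ kidneys. The geometric mean of Cy/+ kidneys was 2.61 times the signal of the filter, and all Cy/+ arrays lay above all +/+ arrays. Thbs4, also below the filter, had 39.6, 46.4 and 40.7 in Cy/+ kidneys and 54.1, 68.9 and 59.2 in +/+ kidneys.

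Among the interstitial proteoglycans, biglycan was far above +/+ kidneys and decorin was inside the spread of its own arrays. Of 6 tested, 2 were higher and 0 lower (median log2 fold change 0.69). The share higher, 33.3%, was near the 37.4% of all genes tested, and where both genotypes reached the filter 1 of 5 was higher. Biglycan (Bgn), a small leucine-rich proteoglycan, had signals of 4650, 3025 and 3295 in Cy/+ kidneys and 1024, 953 and 1121 in +/+ kidneys. It was 3.49-fold higher in Cy/+ kidneys (log2 1.80 ± 0.16, SE, adjusted p = 0.000111, limma), with groups that were wide apart.

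Fibromodulin (Fmod), which binds collagen fibrils, had 149, 116 and 105 in Cy/+ kidneys and 76.7, 63.4 and 75.1 in +/+ kidneys. It was at least 1.57-fold higher in Cy/+ kidneys, since the +/+ mean lay below the filter (adjusted p = 0.00339, limma).

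Decorin (Dcn), the close relative of biglycan, had 9185, 2541 and 3498 in Cy/+ kidneys and 2995, 2998 and 3401 in +/+ kidneys. One Cy/+ array lay far above and one below all +/+ arrays, and the log2 fold change of 0.47 had an interval of -0.53 to 1.48 and was -0.07 without Cy/+ replicate 1. Its neighbour on chromosome 7, lumican (Lum), was below the filter, with 250, 93.7 and 57.8 in Cy/+ kidneys and 20.8, 24.0 and 32.6 in +/+ kidneys. No protein-coding gene lies between Dcn and Lum in the GRCr8 annotation.

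Osteoglycin (Ogn) did not pass on any of its 4 tested probe sets, with log2 fold changes of -0.49, -0.46, 0.31 and -1.15, but the brightest was lower without Cy/+ replicate 1 (-1.03, adjusted p = 0.00157). Prelp, which lies next to Fmod on chromosome 13, did not pass (log2 0.70, interval 0.02 to 1.39, adjusted p = 0.0642), except without Cy/+ replicate 3 (adjusted p = 0.026). Versican (Vcan), a large chondroitin sulfate proteoglycan, did not pass on its brightest probe set, with 198, 82.1 and 124 in Cy/+ kidneys and 79.0, 82.7 and 75.8 in +/+ kidneys, and passed without Cy/+ replicate 2 (adjusted p = 0.0054) or with array quality weights (0.0222). A dimmer probe set had 172, 110 and 145 in Cy/+ kidneys and 40.7, 56.2 and 58.9 in +/+ kidneys, at least 1.8-fold higher in Cy/+ kidneys (adjusted p = 0.000717, limma). Asporin (Aspn) was below the filter, at 24.0, 21.7 and 20.6 in Cy/+ kidneys and 36.1, 35.02 and 43.1 in +/+ kidneys.

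**Figure D2:**
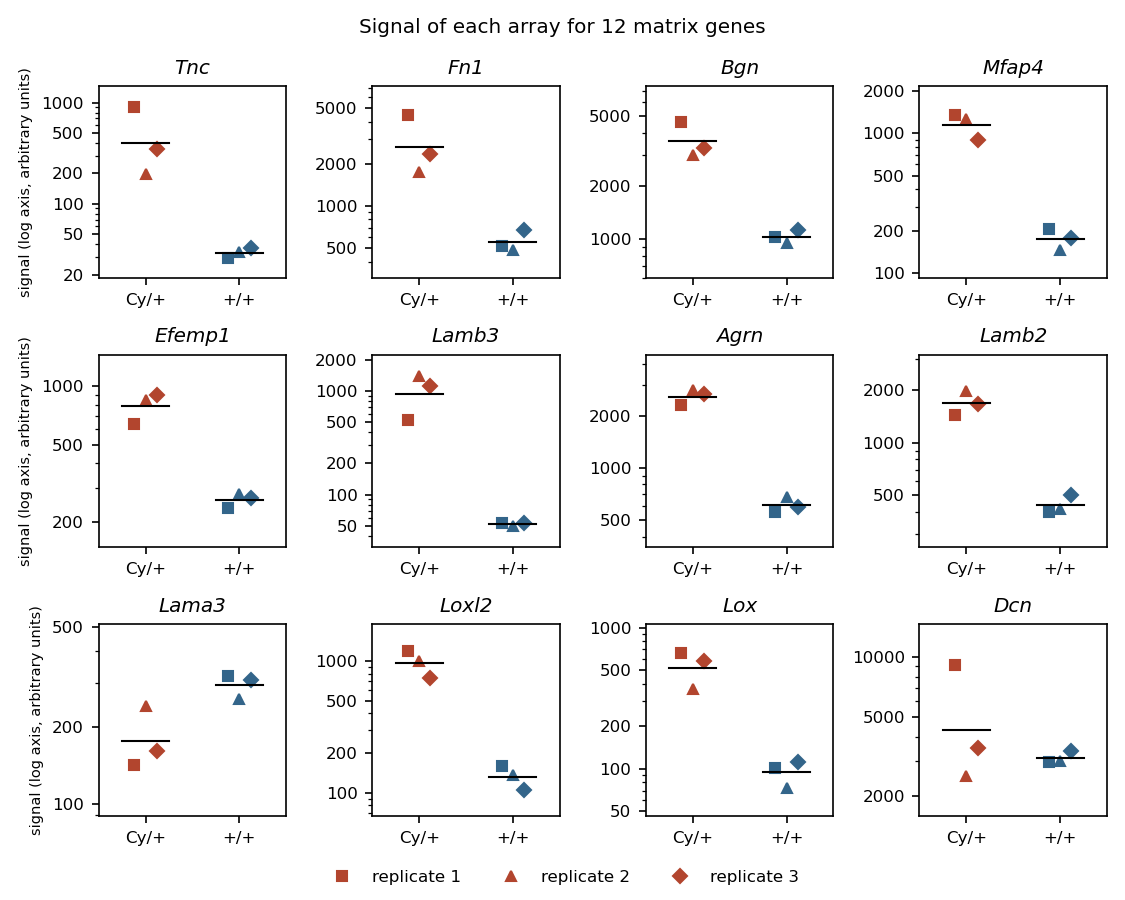
Signal of each array on log axes for 12 of the matrix genes, Cy/+ on the left of each panel and +/+ on the right, with the 3 replicates as squares, triangles and diamonds and a line at the geometric mean. Lamb3 sits at 527 to 1382 in Cy/+ and 49.6 to 53.4 in +/+, Lama3 is the panel with Cy/+ below +/+, and the 2 genotypes overlap for Dcn.

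Elastic fibre genes were mostly higher, led by a microfibril-associated protein, while elastin itself did not pass. Of 8 tested, 6 were higher and 0 lower (median log2 fold change 1.24). The share higher was 75%, against 37.4% of all genes tested, and where both genotypes reached the filter 5 of 7 were higher. Mfap4, a microfibril-associated glycoprotein, had signals of 1367, 1268 and 899 in Cy/+ kidneys and 206, 147 and 179 in +/+ kidneys. It was 6.61-fold higher in Cy/+ kidneys (log2 2.72 ± 0.19, SE, adjusted p = 4.55e-05, limma), and the lowest Cy/+ array was far above the highest +/+ array.

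Fibulin-type proteins Efemp1 and Efemp2, which join elastic fibre components, were both higher. Efemp1 had 639, 849 and 907 in Cy/+ kidneys and 236, 277 and 265 in +/+ kidneys (3.05-fold, log2 1.61 ± 0.15, SE, adjusted p = 0.000111, limma). It was the single matrix gene tested whose highest Cy/+ array was replicate 3. Efemp2 was 2.42-fold higher on its brightest probe set and 1.55-fold higher on the second. With any 1 Cy/+ array left out, the second probe set became the brightest and stood for the gene. Its log2 fold change was then 0.41 to 0.79, against 0.63 for the same probe set with all arrays and 1.28 for the first. Without Cy/+ replicate 1 this second probe set was 1.33-fold higher (adjusted p = 0.0215, limma).

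Fibrillin (Fbn1), the core of microfibrils, had 1636, 528 and 721 in Cy/+ kidneys and 337, 273 and 309 in +/+ kidneys. It was 2.8-fold higher in Cy/+ kidneys, with a wide spread among Cy/+ arrays (log2 1.48 ± 0.38, SE, adjusted p = 0.0106, limma), and the second Fbn1 probe set had a log2 difference of 1.74. Emilin1, a glycoprotein at the elastin surface, was 2.3-fold higher, and Fbln2 was at least 1.46-fold higher (adjusted p = 0.0273, limma). Fbln2 no longer passed without Cy/+ replicate 3 (adjusted p = 0.0771) or without +/+ replicate 1, 2 or 3 (0.0714, 0.0663 and 0.0778).

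Elastin (Eln) had 187, 101 and 136 in Cy/+ kidneys and 114, 107 and 94.8 in +/+ kidneys, and did not pass (log2 0.38, interval -0.13 to 0.89). It passed without Cy/+ replicate 2 (adjusted p = 0.0177) and with its probe sets averaged (log2 0.63, adjusted p = 0.00257). A second Eln probe set, below the filter and untested, had 104, 118 and 90.5 in Cy/+ kidneys and 49.7, 60.3 and 60.7 in +/+ kidneys, with no overlap. Fbln5, needed for elastic fibre assembly in mice, had 1206, 914 and 595 in Cy/+ kidneys and 1347, 1018 and 1487 in +/+ kidneys (log2 -0.55, interval -1.17 to 0.07), and was lower without Cy/+ replicate 1 (-0.78, adjusted p = 0.0164). The arrays of both genotypes overlapped for both genes. Fbln1 lay just under the filter, with 142, 131 and 80.3 in Cy/+ kidneys and 54.3, 45.9 and 59.5 in +/+ kidneys, and Mfap5 was at 23.2 to 24.7 in Cy/+ kidneys and 24.4 to 26.6 in +/+ kidneys.

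In the basement membrane group, laminin chains moved apart from each other: Lamb3 was the matrix gene of largest log2 fold change and Lama3 the only one lower. Of 13 tested, 9 were higher, 1 was lower and 3 did not pass (median log2 fold change 1.07). These shares, 69.2% higher and 7.69% lower, stand against 37.4% and 29.3% of all genes tested. Where both genotypes reached the filter, 8 of 12 were higher and 1 was lower. Lamb3, the beta chain of an epithelial laminin that anchors hemidesmosomes, had signals of 527, 1382 and 1107 in Cy/+ kidneys and 53.4, 49.6 and 53.4 in +/+ kidneys. It was at least 12-fold higher in Cy/+ kidneys, since its +/+ mean was below the filter (fitted log2 4.16 ± 0.33, SE, adjusted p = 6.43e-05, limma).

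Lama3, the alpha chain that assembles with Lamb3, had 142, 243 and 161 in Cy/+ kidneys and 320, 259 and 308 in +/+ kidneys. The groups did not overlap, and Lama3 was lower in Cy/+ kidneys (log2 -0.73 ± 0.20, SE, adjusted p = 0.0155, limma). It is described with its values because it was the one lower gene, a choice made after the values were seen. The call was lost without Cy/+ replicate 3 (adjusted p = 0.05), without +/+ replicate 1 (0.0576) and without +/+ replicate 3 (0.0549).

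Stretches of 120 bases just before the annotated start of 4 laminin and perlecan genes are shown so that the oppositely placed Lamb3 and Lama3 can be set beside 2 genes that were higher by 2.45-fold (Lama5) and 3.09-fold (Hspg2). They are from RefSeq on GRCr8, written 5′ to 3′ on the strand of the gene, and capitals mark any of 6 motifs searched on both strands. These were the TATA box read as TATAAA, the GC box read as GGGCGG, the CCAAT box, the AP-1 motif read as TGANTCA, the TEAD motif read as GGAATG, and GTCTAG as a SMAD motif. None of the 6 holds another.
Lamb3, chr13:107362433-107362552, plus strand: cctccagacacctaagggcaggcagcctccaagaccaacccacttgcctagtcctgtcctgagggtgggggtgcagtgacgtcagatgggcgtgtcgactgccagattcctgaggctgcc
Lama3, chr18:3952647-3952766, plus strand: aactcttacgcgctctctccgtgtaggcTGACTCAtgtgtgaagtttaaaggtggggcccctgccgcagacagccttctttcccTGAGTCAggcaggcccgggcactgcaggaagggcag
Hspg2, chr5:154960726-154960845, plus strand: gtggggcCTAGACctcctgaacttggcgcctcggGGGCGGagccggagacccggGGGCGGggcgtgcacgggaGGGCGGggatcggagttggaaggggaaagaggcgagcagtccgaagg
Lama5, chr3:187695975-187696094, minus strand: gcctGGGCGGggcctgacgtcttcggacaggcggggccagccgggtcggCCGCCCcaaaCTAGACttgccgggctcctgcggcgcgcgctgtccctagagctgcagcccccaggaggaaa
The Lama3 stretch holds TGANTCA at 2 places, the Hspg2 stretch GGGCGG at 3 places, and the Lamb3 stretch none of the motifs. Windows of 300 bases (250 before and 50 after the start) were matched for 32 of the 47 genes, Vcan with 2 windows. The Lamb3 window held CCAAT and GTCTAG outside the stretch shown. GGGCGG was in 54.5% of the 33 windows and in 33.1% of all 33469 windows, TGANTCA in 9.09% and 7.33%, GTCTAG in 21.2% and 8.66%, GGAATG in 27.3% and 14.2%, TATAAA in 15.2% and 14.2%, and CCAAT in 33.3% and 37.5%. A match describes letters and is not a site of binding.

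Agrin (Agrn), a heparan sulfate proteoglycan of basement membranes, had 2289, 2801 and 2659 in Cy/+ kidneys and 554, 675 and 593 in +/+ kidneys. It had the smallest adjusted p of the 38 genes (4.25-fold, log2 2.09 ± 0.11, SE, adjusted p = 2.47e-05, limma). Lamb2, a beta chain of mature glomerular and vascular laminins, had 1439, 1989 and 1666 in Cy/+ kidneys and 400, 415 and 502 in +/+ kidneys (3.85-fold, log2 1.95 ± 0.14, SE, adjusted p = 5.47e-05, limma). Both were apart in every array. Perlecan (Hspg2) was 3.09-fold higher, Lama4, an alpha chain of endothelial and mesenchymal laminins, 2.77-fold, Lama5, the main alpha chain of mature tubular basement membrane, 2.45-fold and Lamb1 2.09-fold.

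The nidogens, which link laminin to type IV collagen, showed small differences on their brightest probe sets. Nid2 had 1244, 1227 and 1240 in Cy/+ kidneys and 987, 987 and 1068 in +/+ kidneys, a 1.22-fold difference larger than the spread of the arrays (adjusted p = 0.0107, limma). The call was lost without +/+ replicate 1 (adjusted p = 0.0521) or +/+ replicate 2 (0.0533). Nid1 had 5066, 2744 and 3502 in Cy/+ kidneys and 3566, 3501 and 3002 in +/+ kidneys (log2 0.13, interval -0.37 to 0.62). A dimmer Nid1 probe set had 145, 142 and 143 in Cy/+ kidneys and 407, 379 and 350 in +/+ kidneys, with all Cy/+ arrays below (lower, log2 -1.40, adjusted p = 3.97e-05, limma). The 2 Nid1 probe sets disagree, and with probe sets averaged Nid1 was lower (log2 -0.64, adjusted p = 0.00516, limma).

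Lamc1, the gamma chain shared by most laminins, had 1562, 1118 and 1140 in Cy/+ kidneys and 672, 648 and 707 in +/+ kidneys (1.86-fold, adjusted p = 0.00106, limma). Its second probe set had 228, 149 and 183 in Cy/+ kidneys and 241, 249 and 243 in +/+ kidneys (log2 -0.41, adjusted p = 0.0501). Lama1 (log2 0.07, interval -0.34 to 0.49) and Lama2 (0.49, interval -0.29 to 1.27) did not pass.

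**Figure D3:**
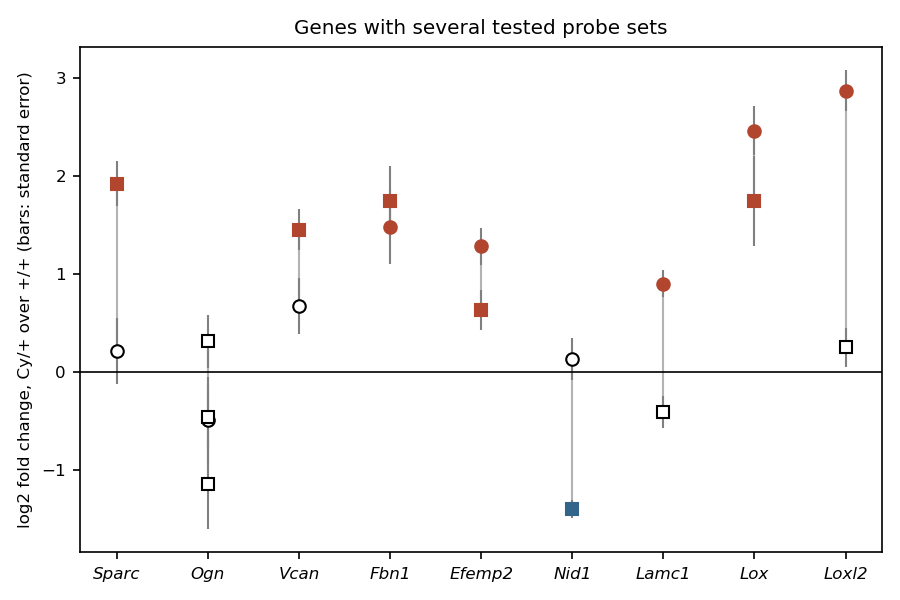
Log2 fold change, Cy/+ over +/+, of each tested probe set for the 9 matrix genes with several, circles for the brightest and squares for the others, with standard errors as bars. Filled red points were higher, the filled blue point was lower and open points did not pass. The probe sets of Sparc (0.21 and 1.92), Nid1 (0.13 and -1.40), Lamc1 (0.90 and -0.41) and Loxl2 (2.87 and 0.25) lie far apart. Those of Ogn run from -1.15 to 0.31.

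All 4 lysyl oxidases tested were higher in Cy/+ kidneys, against 37.4% of all genes tested, with a median log2 fold change of 2.09. Both genotypes reached the filter for all 4 on their brightest probe sets. Loxl2 had signals of 1194, 999 and 749 in Cy/+ kidneys and 159, 136 and 106 in +/+ kidneys (7.31-fold, log2 2.87 ± 0.21, SE, adjusted p = 5.16e-05, limma). A second, dimmer Loxl2 probe set did not pass (log2 0.25, interval -0.22 to 0.72). Lox, the founding member of the family, had 663, 368 and 578 in Cy/+ kidneys and 102, 73.5 and 112 in +/+ kidneys (5.52-fold, log2 2.46 ± 0.25, SE, adjusted p = 0.000166, limma). A second, dimmer Lox probe set, with a +/+ mean below the filter, was at least 3.25-fold higher (fitted log2 1.74, adjusted p = 0.0119, limma). Loxl1, which acts on elastin in mice, had 5110, 2659 and 2976 in Cy/+ kidneys and 1131, 843 and 1218 in +/+ kidneys (3.27-fold, log2 1.71 ± 0.26, SE, adjusted p = 0.000966, limma), and Loxl3 was 2.08-fold higher. On the brightest probe sets every Cy/+ array lay above every +/+ array for all 4 genes, against 41.5% of all genes tested. The arrays overlapped on the second Loxl2 probe set.

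The 3 Cy/+ arrays also differed among themselves, and differently by role group. Cy/+ replicate 1 was the highest of the 3 for 31 of the 38 genes, or 81.6%, against 41.5% of all genes tested. It was the highest for every interstitial glycoprotein, proteoglycan and lysyl oxidase tested. Cy/+ replicate 2 was the highest for 6 genes, all of the basement membrane group: Lama3, Lama5, Lamb2, Lamb3, Hspg2 and Agrn. Replicate 1 was the highest for the other 7 of the 13 genes tested in that group. Among all 10645 genes tested, replicate 2 was the highest for 3263 and replicate 3 for 2966. Cell type markers differed in the same arrays: replicate 1 was the highest for 10 of 10 fibroblast and pericyte markers and 9 of 10 macrophage and leukocyte markers, and replicate 2 for 8 of 8 collecting duct markers. Replicate 1 was also the highest for 6 of 8 endothelial and 5 of 6 podocyte markers. For 7 of 7 thick ascending limb and distal tubule markers it was replicate 3, and for the 12 proximal tubule markers replicates 1 and 3, with 6 each. The part of these markers in the matrix values was not tested.

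**Figure D4:**
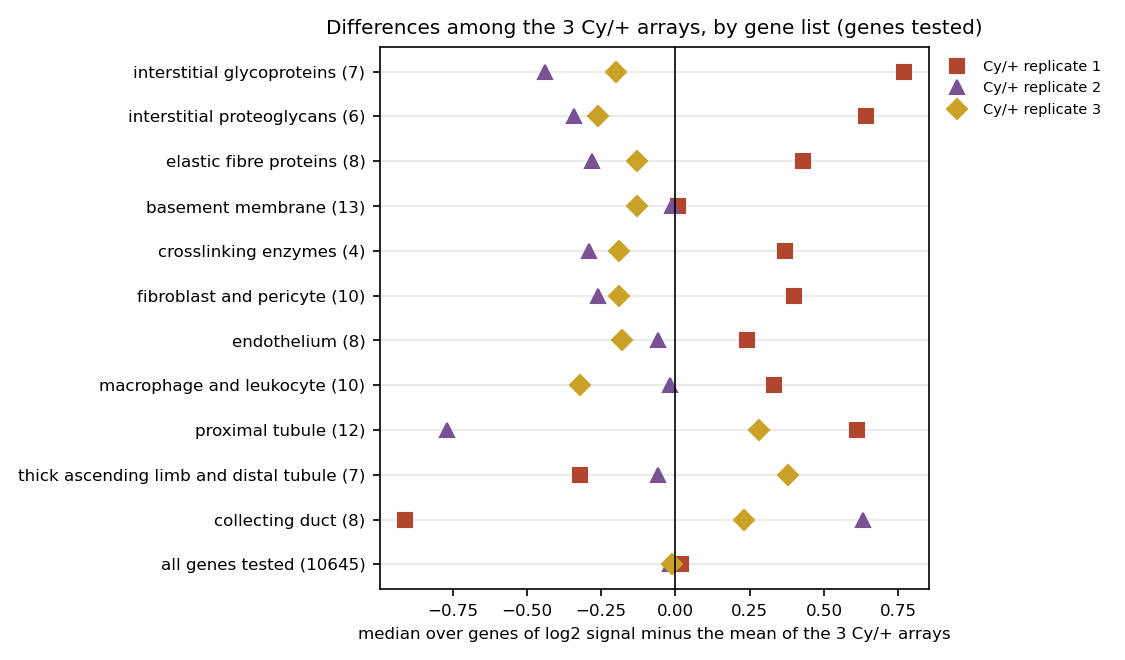
Median over genes of the log2 signal of each Cy/+ array minus the mean of the 3 Cy/+ arrays, by role group and marker list, with the number of genes tested in brackets. Replicate 1 lies at 0.77 for interstitial glycoproteins and at 0.01 for the basement membrane group, and replicate 2 lies at 0.63 for collecting duct markers.

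Genes of the same pathway outside the list are given by counts, to be read against the 37.4% higher and 29.3% lower of all genes tested. Of 20 matrix receptors tested, 13 were higher and 2 lower (65% and 10%, median log2 fold change 0.62). Itgb4, the integrin chain that binds laminin at hemidesmosomes, had signals of 905, 1082 and 1027 in Cy/+ kidneys and 146, 109 and 109 in +/+ kidneys (log2 3.06, adjusted p = 2.05e-05, limma). Cd44, a hyaluronan receptor, had a log2 fold change of 2.77, and the lower genes were Cd36 (-2.33) and Sdc2 (-0.91).

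Of 20 enzymes and inhibitors that process matrix, 15 were higher and 1 was lower (75% and 5%), with a median of 1.17. Mmp14, a membrane-bound collagenase, had a log2 fold change of 2.01 and Timp2, which binds it, one of 2.09, while Timp3 was lower (-0.84). Of 22 other matrix proteins tested, 9 were higher and 1 was lower (40.9% and 4.55%), with a median of 0.26, so that the share higher was near that of all genes. Smoc2 had a log2 fold change of 4.24 and osteopontin (Spp1) one of 2.62, and Tinag, a protein of tubular basement membrane, was lower (-2.99). Of 10 genes of TGF-beta signalling tested, 4 were higher and 2 lower (40% and 20%), with a median of 0.28, shares near those of all genes. Tgfb1 (1.48) and Tgfb2 (2.58) were higher, and Bambi, a decoy receptor, and Tgfbr3 were lower (-0.99 and -0.35).

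Markers of the cells that could hold these transcripts also differed between the genotypes. Their counts are again to be read against the 37.4% higher and 29.3% lower of all genes tested. Of 10 fibroblast and pericyte markers, 8 were higher and 1 lower, and their summed signal was 24540 to 38769 in Cy/+ kidneys and 8089 to 8978 in +/+ kidneys. Col1a1 (log2 fold change 3.98) and Vim (2.68) had the smallest adjusted p, and Nt5e was lower (-1.44). All 10 macrophage and leukocyte markers were higher, with summed signals of 24377 to 32304 in Cy/+ kidneys and 14333 to 16125 in +/+ kidneys, among them Cd14 (2.15) and Lyz2 (1.04). All 12 proximal tubule markers were lower, with sums of 16497 to 42561 in Cy/+ kidneys and 116520 to 121421 in +/+ kidneys, among them Slc34a3 (-4.25) and Aqp1 (-1.36). Of 8 endothelial markers, 5 were lower and 3 did not pass, with sums of 4070 to 5533 in Cy/+ kidneys and 7977 to 8698 in +/+ kidneys, and Vwf (-1.94) and Emcn (-1.58) had the smallest adjusted p.

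Of 6 podocyte markers, 4 were lower, Podxl (-1.08) and Nphs1 (-1.30) among them, and Synpo (0.56) and Cdkn1c (0.76) were higher, with sums of 3757 to 4723 in Cy/+ kidneys and 3962 to 4413 in +/+ kidneys. Of 7 genes that mark thick ascending limb or distal tubule cells, Cldn16 was higher (1.00) and 3 were lower, Calb1 (-1.87) and Egf (-2.13) among them, with sums of 20157 to 32087 in Cy/+ kidneys and 33888 to 36190 in +/+ kidneys. For the collecting duct 8 genes were tested, Aqp4 being higher (2.28) and Slc26a4 lower (-1.13), with sums of 5312 to 17657 in Cy/+ kidneys and 6481 to 7589 in +/+ kidneys. Of 3 smooth muscle markers tested, Des was higher (1.32), with sums of 1421 to 2222 in Cy/+ kidneys and 1004 to 1168 in +/+ kidneys. All 9 genes of tubular injury were higher, Clu (3.24) and Lcn2 (5.11) among them, with sums of 54044 to 57119 in Cy/+ kidneys and 6834 to 8510 in +/+ kidneys. The part of these markers in the matrix results was not tested.

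**Figure D5:**
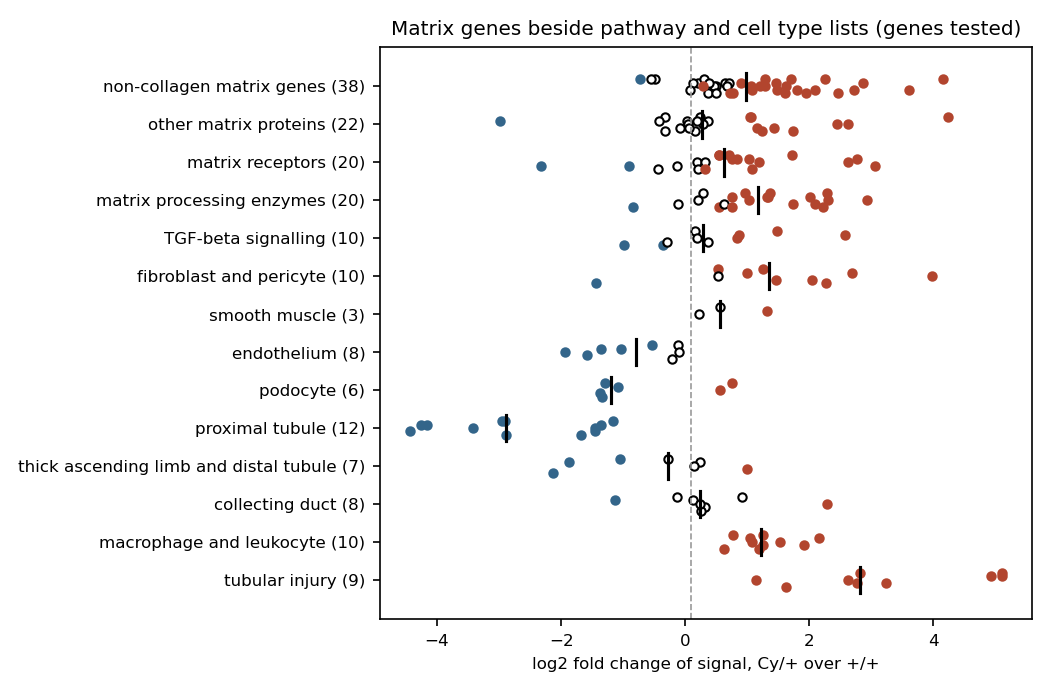
Log2 fold change of signal, Cy/+ over +/+, for the 38 matrix genes and for the pathway and cell type lists, 1 point per gene tested, red where higher, blue where lower and open where not passed. Black ticks mark list medians, 0.98 for the matrix genes, and the dashed line the median of all genes tested, 0.09.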

How the data were processed

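Kidney RNA of 3 Cy/+ and 3 +/+ samples was hybridized to rat genome arrays. The deposited values are linear signal intensities, 1 per probe set, which the authors made with software that the submitters' notes name as MAS5. How the authors scaled the arrays to each other is not given in the sources used here, and no detection calls were used. With so few arrays the precision is limited.

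Intensities were taken to log2 without further scaling. Of 31099 probe sets, 57 controls were left out, and the 18625 with a mean log2 signal at or above the 40th percentile (6.28, a signal of 77.8) were tested with limma 3.58.1 in R 4.3.3 (lmFit, eBayes with an intensity trend), with Benjamini-Hochberg adjustment over all of them and a threshold of 0.05. Genes were named through the platform annotation, with symbols updated from RefSeq. Where the dimmer genotype lay below the filter, a fold is at least the geometric mean of the brighter genotype over the filter signal. Full values are given for the 3 largest changes past the threshold in each role group, for genes whose probe sets disagree and, as signals, for genes below the filter, and from each other list 2 genes of smallest adjusted p each way are named. Others were named after their values were seen. The fit was tested on simulated data. The genes and lists were chosen with earlier results of these data known.

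The alternatives, each run alone, were quantile normalization and median centring; testing all probe sets, or those above the 60th percentile; a pseudocount of 16; a fit without the intensity trend, with array weights or with the replicate block; the methods' t-test; averaging probe sets per gene; dropping probe sets for several transcripts; old symbols; and each array left out.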

Additional observations from a re-analysis of the deposited data

Results flagged for a closer look

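Signals in probe sets outside the comparison of genes were looked at for differences between the genotypes. The hybridization controls had a median log2 difference of 0.87 and the poly-A controls one of 1.93, Cy/+ minus +/+, although both are RNAs added in the laboratory. Every one of the 18 and of the 24 probe sets was higher in all Cy/+ arrays. The mean 3 prime to 5 prime ratio was 3.22 in Cy/+ and 1.51 in +/+ for beta-actin, 1.85 in Cy/+ and 1.18 in +/+ for GAPDH, and 4.46 in Cy/+ and 3.83 in +/+ for hexokinase. Among the matrix genes that the filter kept out of the test, Postn had a mean signal of 223 in Cy/+ and 27.2 in +/+ kidneys, Lum 134 in Cy/+ and 25.8 in +/+, and Fbln1 118 in Cy/+ and 53.2 in +/+. Without the filter their adjusted p-values were 0.000234, 0.00644 and 0.00358 (limma). Other genes kept out went the other way: Aspn and Thbs4 were lower in all Cy/+ arrays, with adjusted p-values of 0.000509 and 0.00725 without the filter (limma). For Mfap5 the arrays overlapped (0.313).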

How the results depend on the processing

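Of the 23 matrix genes that were higher, 19 passed under each of the 18 alternatives that tested them. Fbn1 (methods' t-test), Lamc1 (mean of probe sets), Nid2 (2 alternatives) and Fbln2 (5 alternatives) did not. The count of higher genes ran from 19 to 26, but the number tested also changed. The 19 were of 31 tested with the filter at the 60th percentile. The 26 were of 44 tested with no filter and of 37 tested without Cy/+ replicate 2. The count of lower genes, 1 here, was 3 with no filter, 3 with array quality weights, 2 with probe sets averaged per gene, 0 with the methods' t-test and 0 to 3 with 1 array left out. Within the basement membrane group it was 0 with the t-test, 2 with the mean of probe sets and 0 to 1 with 1 array left out. One interstitial glycoprotein and 1 proteoglycan were lower with no filter, and 1 proteoglycan and 1 elastic fibre gene were lower with array quality weights and 0 to 1 of each with 1 array left out. With the filter at the 60th percentile 1 of 5 glycoproteins and 1 of 4 proteoglycans tested were higher, and 2 to 4 glycoproteins with 1 array left out. Without Cy/+ replicate 1, Ogn (-1.03, adjusted p = 0.00157, limma) and Fbln5 (-0.78, 0.0164) were lower, as with array quality weights (-0.80, 0.0341, and -0.75, 0.0196). Sparc passed with probe sets averaged (1.06, 0.0147), and Nid1 was then lower (-0.64, adjusted p = 0.00516, limma). The sign of genes that did not pass turned for Sparc with array quality weights (-0.03) and over -0.23 to 1.85 with 1 array left out, for Dcn over -0.07 to 0.86, for Nid1 with the mean of probe sets (-0.64) and over -0.11 to 0.33, and for Lama1 with quantile normalization (-0.05), array quality weights (-0.02) and over -0.08 to 0.19. Without +/+ replicate 3 the other Sparc probe set was the brightest and passed (adjusted p = 0.00279). The causes were not tested. The labels do not say whether the replicate numbers pair the samples. Deviations of arrays with the same number had correlations of 0.147, -0.11 and -0.151, which cannot decide it. With the replicate number as a block 24 matrix genes were higher and 1 was lower. A gene below the filter in +/+ kidneys has only a bound for its fold.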
